A study of Bos taurus with 6 samples.

Results

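Granulosa cells turn cholesterol into progestins in a short chain of steps that is shared by most steroid-making cells. Carrier proteins bring cholesterol into the mitochondrion, where the side-chain cleavage enzyme makes pregnenolone with electrons that reach it from NADPH through ferredoxin reductase and ferredoxin, and a 3β-hydroxysteroid dehydrogenase then turns pregnenolone into progesterone. Microsomal cytochromes P450, among them 17α-hydroxylase and aromatase, take their electrons from a different donor, cytochrome P450 oxidoreductase, and further enzymes reduce, oxidise or sulfate the steroids and so set how active they are in the cell.

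The expression of 10 genes of this chain was followed in bovine granulosa cells after treatment with an inhibitor of ERK signaling. The genes were chosen by name for their role: STAR, TSPO and STARD3 for cholesterol import, FDX1 and FDXR for mitochondrial electron transfer, POR for microsomal electron transfer, HSD3B1 and CYP17A1 for the conversion of progestins, and HSD11B1 and SULT1E1 for the modification of other steroids. Each of them was read by 1 transcript cluster (a group of probes summarised to 1 value), so the 10 genes account for 10 of the 24415 clusters on the array and 10 of the 19416 genes that could be named. Side-chain cleavage itself, encoded by CYP11A1, was not analysed here, because no cluster could be given that name alone.

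The cells were primary granulosa cells aspirated from small and medium follicles of bovine ovaries, frozen, thawed and grown without serum in the presence of FSH, IGF1 and androstenedione for 4 days. On day 2 they received PD98059 at 50 µM, an inhibitor of the kinase MEK that blocks the phosphorylation of ERK, or its solvent DMSO, for 2 h. The medium was then exchanged, wholly according to the study's methods and in part according to the sample labels. By the labels' account some PD98059 would have stayed on the cells after the 2 h. Culture went on without further treatment. RNA of 3 PD98059 cultures and 3 DMSO cultures was hybridised to Affymetrix Bovine Gene 1.0 ST arrays, 1 array for each culture; the sources do not say whether the cultures came from separate cell preparations, and the p-values measure only the spread between these 6 cultures.

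Values are log2 signals after robust multichip averaging (RMA), so a difference of 1 is a doubling, and since probes differ in response, signals of different genes are not read as relative amounts of transcript. Signals summed over a marker list were added on the linear scale, so the strongest genes weigh most. These sums serve only to set the arrays against each other, and the 3 markers of highest signal are named only to pick examples. The array medians lay between 4.68 and 4.74. A level of 3.71, the 95th percentile of 363 clusters of olfactory receptor genes, was taken as background, and 15345 clusters had a mean above it. Of the 10 genes, 8 lay above it; CYP17A1 and SULT1E1 did not. All 14 measured granulosa cell genes lay above background, but so did all 12 fibroblast and smooth muscle genes, 8 of 11 theca genes, 8 of 14 immune genes and 3 of 8 endothelial genes, so this does not set granulosa cells apart. FSHR, the receptor for follicle-stimulating hormone and a granulosa marker, had values of 8.58, 8.55 and 8.56 with PD98059, against 7.37, 7.46 and 7.51 with DMSO. No oocyte gene of 7 lay above background, and their summed level was 5.55 to 5.72 with PD98059 and 5.50 to 5.64 with DMSO.

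A gene was called changed at a false discovery rate (FDR) under 0.05, from limma with Benjamini-Hochberg adjustment over all 24415 clusters, together with a fold above 1.4, which is 0.49 on the log2 scale. Of the 10 genes, 2 passed both limits, where 2.69% of all clusters did: FDXR upward (0.909% of clusters) and HSD11B1 downward (1.78%). The FDR limit alone was passed by 4 genes, where 4.55% of all clusters did: FDX1 and FDXR upward (1.72%) and TSPO and HSD11B1 downward (2.82%). In 7 genes the PD98059 and DMSO values did not overlap, where 25.5% of all clusters showed this; 4 lay above the DMSO values (12.6%) and 3 below (13%). The median log2 fold change of the 10 genes was -0.03, beside 0.01 over all clusters, and its median size was 0.14, beside 0.12. The values took both directions, 5 positive and 5 negative.

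**Figure D1:**
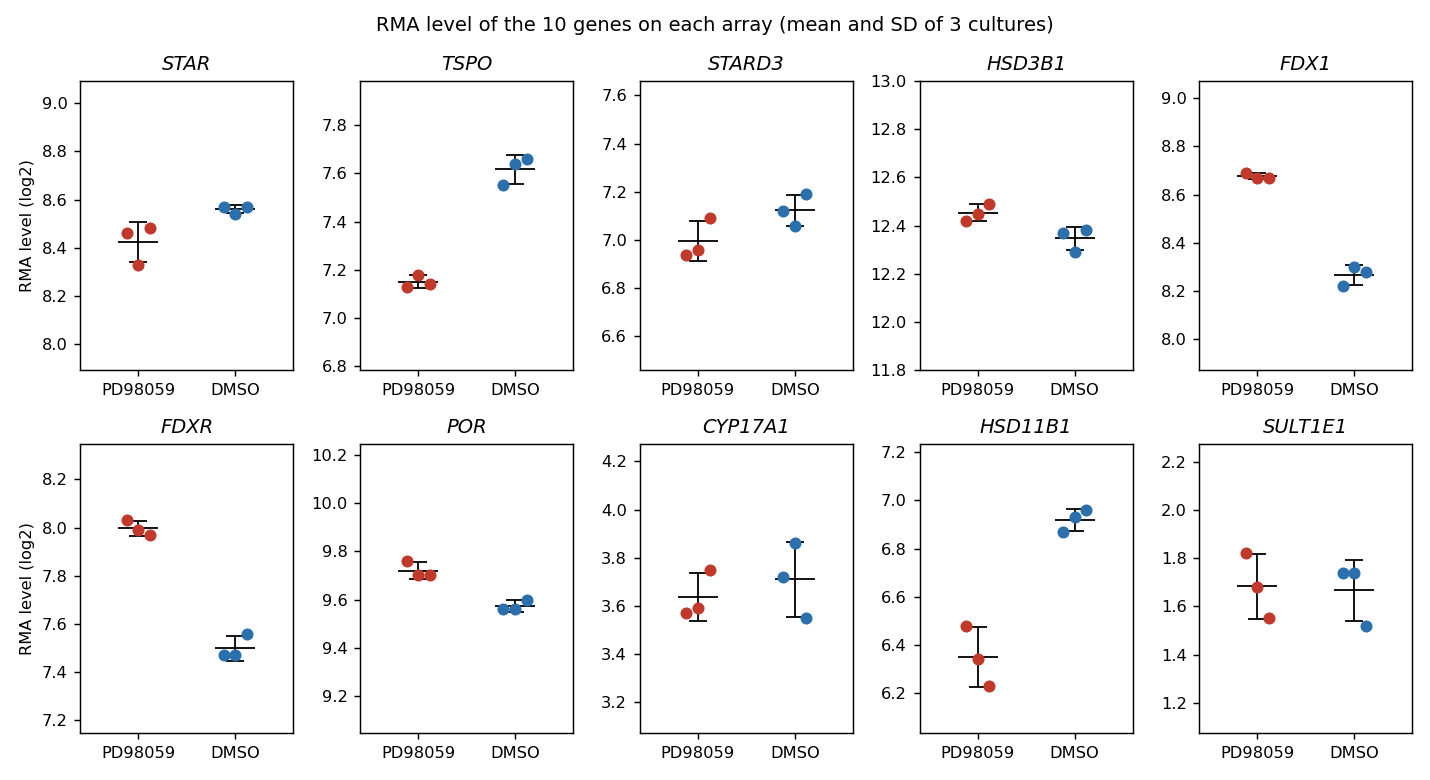
RMA level (log2) of each of the 10 genes on each array, with PD98059 cultures in red and DMSO cultures in blue; bars give the mean and SD of 3 cultures, and all panels span the same height. The groups stand farthest apart for FDXR, HSD11B1, FDX1 and TSPO, with gaps of 0.41, 0.39, 0.37 and 0.37, and they overlap for STARD3, CYP17A1 and SULT1E1.

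Among the 3 carriers of cholesterol, TSPO passed the FDR limit and STAR and STARD3 did not. STAR encodes the steroidogenic acute regulatory protein, which moves cholesterol to the inner mitochondrial membrane and sets the pace of steroid synthesis. Its levels were 8.46, 8.33 and 8.48 with PD98059, against 8.57, 8.54 and 8.57 with DMSO. All 3 PD98059 values lay below all 3 DMSO values, by as little as 0.06. The mean was 8.42 ± 0.08 with PD98059 and 8.56 ± 0.02 with DMSO (SD, n = 3 each), a log2 fold change of -0.14 (standard error 0.07, limma adjusted p = 0.345). STAR therefore did not pass the test. The 95% interval of the difference, -0.30 to 0.03, corresponds to 81.1% to 102% of the DMSO level.

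TSPO encodes the translocator protein of the outer mitochondrial membrane, a cholesterol-binding protein whose need in steroid synthesis is debated. It had levels of 7.13, 7.18 and 7.14 with PD98059, against 7.55, 7.64 and 7.66 with DMSO. The groups were tight and 0.37 apart. The mean was 7.15 ± 0.03 with PD98059 and 7.62 ± 0.06 with DMSO (SD, n = 3 each), a log2 fold change of -0.47 (standard error 0.07, limma adjusted p = 0.0141). This is a level 72.4% of that with DMSO and a fold of 1.38, so TSPO passed the FDR limit and stayed just inside the fold limit. Whichever of the 6 arrays was left out, the FDR limit was no longer passed, with an adjusted p between 0.0524 and 0.0636. With each array centred on its own median the log2 fold change was -0.50 and TSPO passed both limits.

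STARD3 encodes a relative of STAR that tethers late endosomes and moves cholesterol from them. Its levels were 6.94, 6.96 and 7.09 with PD98059, against 7.12, 7.06 and 7.19 with DMSO. The groups overlapped, since PD98059 replicate 3 lay above DMSO replicate 2. The means differed by -0.13 on the log2 scale (standard error 0.07, limma adjusted p = 0.417). All 3 carriers had negative values. The log2 fold change of TSPO differed from that of STAR by -0.33, and the within-array difference of the pair did not overlap between the groups. The exact permutation test of this difference gave p = 0.1 (two-sided, adjusted p = 0.1 over 5 pairs of genes picked after their values were seen), the smallest that 3 against 3 cultures allow.

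Around these carriers, 14 further genes of cholesterol supply, including acyl-CoA-binding and StAR-related proteins, were measured. In limma none of the 14 passed both limits, where 2.69% of all clusters did, and 1 passed the FDR limit, where 4.55% did. Counts this small are near those shares. An unadjusted p under 0.05 was found for 7, where 19.6% of all clusters had one. The 3 with the largest changes were SOAT1, which esterifies cholesterol for storage, at 0.42 (limma adjusted p = 0.0305, fold under 1.4), and the cholesterol carriers STARD5 at -0.36 (adjusted p = 0.228) and STARD4 at -0.22 (adjusted p = 0.204). SOAT1 levels were 9.14, 9.27 and 9.35 with PD98059, against 8.81, 8.83 and 8.85 with DMSO, and did not overlap. The median log2 fold change of the list was -0.05, beside 0.01 over all clusters.

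Both mitochondrial carriers of electrons were higher with PD98059 at the FDR limit, and the microsomal one did not pass it. FDXR encodes ferredoxin reductase, the flavoprotein that takes electrons from NADPH for all mitochondrial P450 enzymes. It rose with PD98059. Its levels were 8.03, 7.99 and 7.97 with PD98059, against 7.47, 7.47 and 7.56 with DMSO, and the lowest treated culture lay 0.41 above the highest control. The mean was 8.00 ± 0.03 with PD98059 and 7.50 ± 0.05 with DMSO (SD, n = 3 each), a log2 fold change of 0.50 (standard error 0.06, 95% interval 0.34 to 0.65, limma adjusted p = 0.0112) and a fold of 1.41. The fold stood barely above its limit. FDXR ranked 301 of 24415 clusters by p. It passed both limits without PD98059 replicate 2, PD98059 replicate 3 or DMSO replicate 3, and not without PD98059 replicate 1 or DMSO replicate 2 (log2 fold change 0.48 each, inside the fold limit) or DMSO replicate 1 (adjusted p = 0.0609).

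FDX1 encodes ferredoxin 1, the small iron-sulfur protein that carries these electrons on to the P450 enzymes. Its levels were 8.69, 8.67 and 8.67 with PD98059, against 8.22, 8.30 and 8.28 with DMSO. The treated cultures were nearly equal, and the lowest lay 0.37 above the highest control. The log2 fold change was 0.41 (standard error 0.06, 95% interval 0.26 to 0.56, limma adjusted p = 0.0176), a fold of 1.33, so FDX1 passed the FDR limit alone. With any 1 array left out it passed neither limit, the adjusted p lying between 0.0566 and 0.0819. FDX2, the second mitochondrial ferredoxin, which serves iron-sulfur cluster assembly, differed by -0.11 on the log2 scale (adjusted p = 0.683), with overlapping groups; it was picked by its relation to FDX1 after its values were seen.

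POR encodes the oxidoreductase that feeds the microsomal P450 enzymes. Its levels were 9.76, 9.70 and 9.70 with PD98059, against 9.56, 9.56 and 9.60 with DMSO, a gap of 0.10. POR differed by 0.15 on the log2 scale (standard error 0.06, 95% interval 0.00 to 0.29, limma adjusted p = 0.255) and did not pass the test. The 95% interval of POR lay below that of FDXR and overlapped that of FDX1. Setting intervals side by side does not test a difference. The change of FDXR exceeded that of POR by 0.35 and the change of FDX1 exceeded it by 0.26, and the per-array differences did not overlap between the groups. FDX1 and FDXR differed by -0.09 in their change. Each of these differences had an exact permutation p = 0.1 (two-sided, adjusted p = 0.1 over the 5 pairs), the smallest possible with 3 against 3 cultures.

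**Figure D2:**
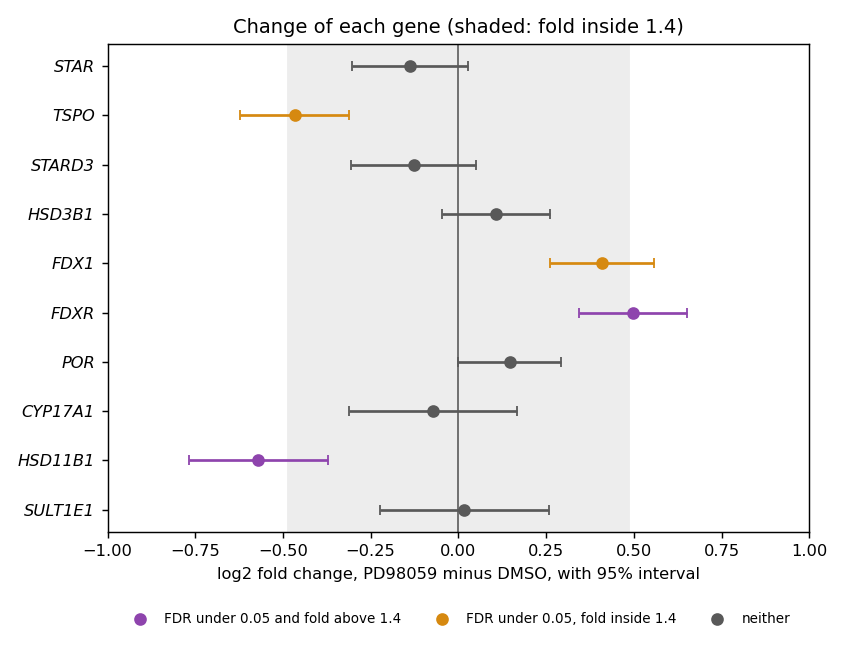
log2 fold change (PD98059 minus DMSO) of the 10 genes with 95% intervals from limma; the shaded band lies inside a fold of 1.4. FDXR at 0.50 and HSD11B1 at -0.57 are past both limits, FDX1 at 0.41 and TSPO at -0.47 pass the FDR limit inside the band, and the other 6 pass neither.

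A further 16 of 18 listed donors, partners and client enzymes were measured, and 2 were higher, 1 was lower and 13 passed neither direction. Of all clusters, 0.909% were higher and 1.78% lower past both limits. In limma 5 of the 16 passed the FDR limit and 8 had an unadjusted p under 0.05, where 4.55% and 19.6% of all clusters did. Among the clients, aromatase (CYP19A1), which makes estrogens, rose: its levels were 9.54, 9.59 and 9.62 with PD98059, against 7.33, 7.68 and 7.72 with DMSO, a log2 fold change of 2.01 (standard error 0.11, limma adjusted p = 0.00136). CYP21A2, a steroid hydroxylase of corticoid synthesis, rose by 0.78 at a low level (4.80, 4.95 and 4.66 with PD98059, against 4.13, 3.78 and 4.17 with DMSO). CYP1B1, which hydroxylates estrogens, fell by 0.90 on the log2 scale. The aromatase call held whichever array was left out, that of CYP1B1 held only without PD98059 replicate 3, and that of CYP21A2 held in no fit without 1 array. HMOX2, a heme oxygenase that draws on POR, and CYB5R3, the cytochrome b5 reductase, passed the FDR limit inside the fold limit, at -0.37 and -0.35; they were picked after their values were seen. The median over the 16 genes was 0.05.

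Neither enzyme of progestin conversion passed the test. HSD3B1 encodes the 3β-hydroxysteroid dehydrogenase that turns pregnenolone into progesterone. Its levels were 12.42, 12.45 and 12.49 with PD98059, against 12.37, 12.29 and 12.38 with DMSO, a gap of 0.04. The log2 fold change was 0.11 (standard error 0.06, 95% interval -0.05 to 0.26, limma adjusted p = 0.428), and the test was not passed. The interval corresponds to 96.8% to 119.8% of the DMSO level. The log2 fold change of HSD3B1 differed from that of STAR by 0.24 (exact permutation p = 0.1, two-sided, adjusted p = 0.1 over the 5 pairs). This p is the smallest possible, so the test cannot decide whether HSD3B1 and STAR changed differently.

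CYP17A1, which encodes 17α-hydroxylase and is the enzyme of androgen synthesis in theca cells, lay at or below background. Its levels were 3.57, 3.59 and 3.75 with PD98059, against 3.72, 3.86 and 3.55 with DMSO, and the groups overlapped. The log2 fold change was -0.07 (standard error 0.10, limma adjusted p = 0.746). No change was detectable at this level. SULT1E1, estrogen sulfotransferase, which inactivates estradiol, was also below background, with 1.82, 1.68 and 1.55 with PD98059, against 1.74, 1.74 and 1.52 with DMSO. Its log2 fold change was 0.02 (standard error 0.10, adjusted p = 0.951), and no difference was detectable there either.

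Of the 2 genes for the modification of other steroids, HSD11B1 alone was expressed above background, and it fell. HSD11B1 encodes 11β-hydroxysteroid dehydrogenase 1, which regenerates active glucocorticoid from its inactive form with NADPH from hexose-6-phosphate dehydrogenase. Its levels were 6.48, 6.34 and 6.23 with PD98059, against 6.87, 6.93 and 6.96 with DMSO, and the highest treated culture lay 0.39 below the lowest control. The mean was 6.35 ± 0.13 with PD98059 and 6.92 ± 0.05 with DMSO (SD, n = 3 each), a log2 fold change of -0.57 (standard error 0.08, 95% interval -0.77 to -0.37, limma adjusted p = 0.016), which is 67.4% of the DMSO level. The treated cultures were more spread than the controls. HSD11B1 ranked 427 by p. Among the fits without 1 array, both limits were passed only without PD98059 replicate 1; without PD98059 replicates 2 and 3 and DMSO replicates 1, 2 and 3 the adjusted p was 0.0646, 0.0548, 0.064, 0.0629 and 0.0705.

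The partners of HSD11B1 did not pass the test. H6PD, which supplies its NADPH, differed by -0.05 on the log2 scale (limma adjusted p = 0.784), and HSD11B2, which runs the opposite reaction, by -0.10 (adjusted p = 0.625). Both had overlapping groups, and both were picked after their values were seen.

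**Figure D3:**
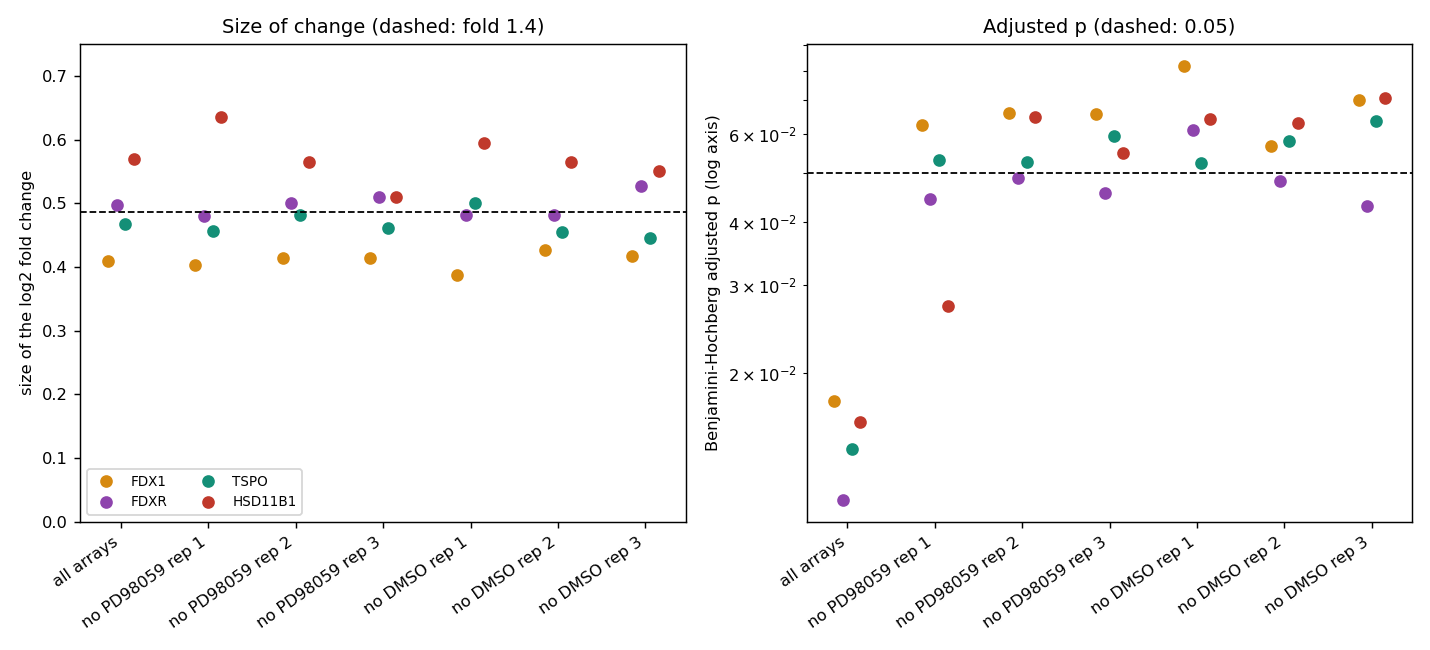
Size of the log2 fold change (left) and limma adjusted p (right, log axis) of FDX1, FDXR, TSPO and HSD11B1, with all 6 arrays and with each array left out in turn; dashed lines mark a fold of 1.4 and an adjusted p of 0.05. Sizes stay close while adjusted p rises with fewer arrays, from 0.0112 for FDXR with all arrays to at most 0.0609, and from 0.016 for HSD11B1 to at most 0.0705.

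Among the other 27 measured hydroxysteroid dehydrogenases and reductases, 1 was higher and 2 were lower, and 24 passed neither direction. Of all clusters, 0.909% were higher and 1.78% lower past both limits. In limma 5 of the 27 passed the FDR limit and 7 had an unadjusted p under 0.05, where 4.55% and 19.6% of all clusters did. HSD17B1, which makes estradiol from estrone, rose: its levels were 6.23, 6.11 and 6.13 with PD98059, against 4.71, 5.36 and 4.97 with DMSO (log2 fold change 1.14, standard error 0.16, limma adjusted p = 0.0138). DHRS9, a retinol and steroid dehydrogenase, fell by 1.39 on the log2 scale (adjusted p = 0.00232), with 5.48, 5.17 and 5.47 with PD98059, against 6.76, 6.74 and 6.79 with DMSO. HSD17B10, a mitochondrial dehydrogenase, fell by 0.51 (adjusted p = 0.019), and its call was lost whichever array was left out. The DHRS9 call held whichever array was left out; that of HSD17B1 was lost without PD98059 replicate 1, 2 or 3 or DMSO replicate 3. HSD3B7, a bile acid enzyme related to HSD3B1, had -0.43 (adjusted p = 0.0415) with a fold under 1.4, and was picked after its values were seen. The list's median was -0.05. Of 12 measured enzymes of sulfation, desulfation and glucuronidation, 4 lay above background. In limma none of the 12 passed both limits, where 2.69% of all clusters did, and 1 passed the FDR limit, against the 4.55%. Counts this small are near those shares. An unadjusted p under 0.05 was found for 3, against the 19.6% of all clusters. The largest changes were those of SULT1A1, a phenol sulfotransferase that also acts on estrogens, at -0.39 (adjusted p = 0.0292, fold under 1.4), SULT2B1 at 0.32 (adjusted p = 0.167) and STS at 0.20 (adjusted p = 0.503), both of the last below background.

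**Figure D4:**
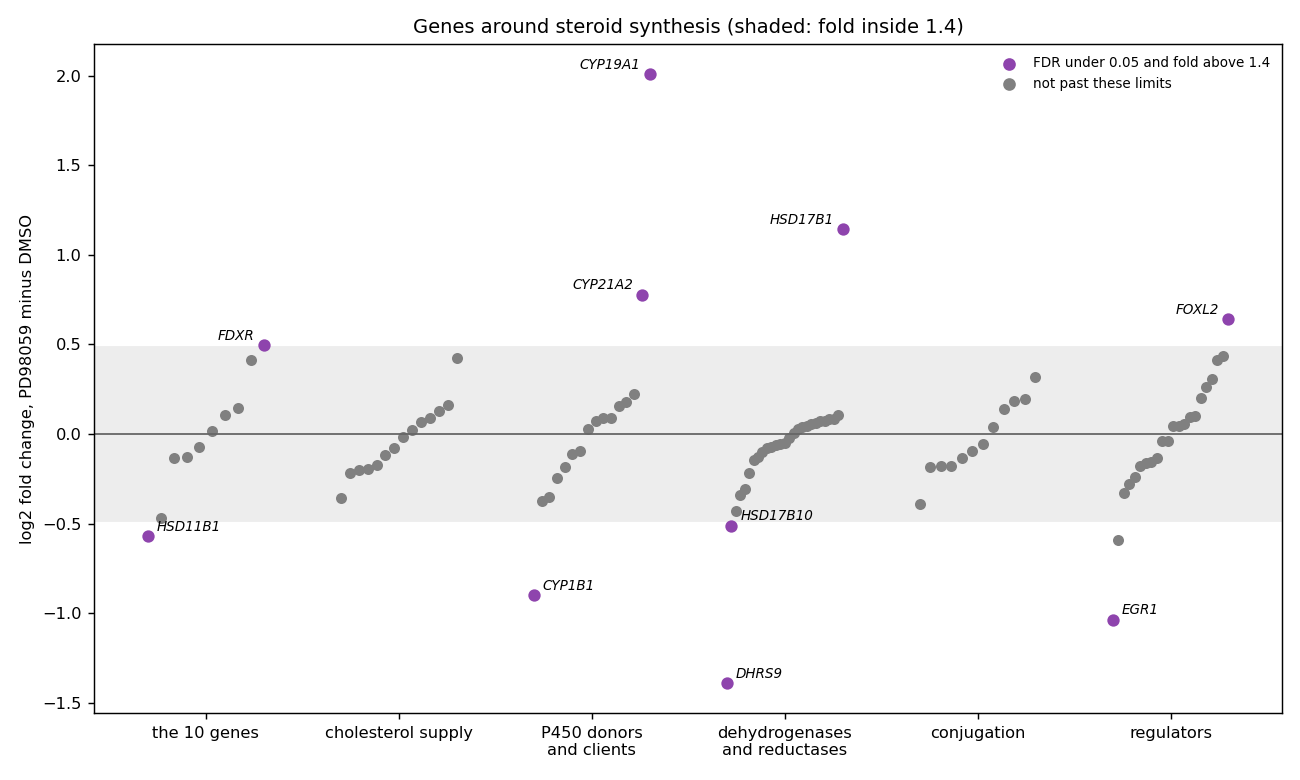
log2 fold change (PD98059 minus DMSO) of the 10 genes and of 5 lists around steroid synthesis, each dot 1 gene, with those past both limits in purple and named; the shaded band lies inside a fold of 1.4. The called genes are 2 of the 10, none in cholesterol supply or conjugation, and 3, 3 and 2 in the lists of P450 donors and clients, dehydrogenases and reductases, and regulators.

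The list of regulators of STAR and CYP17A1 transcription held transcription factors and also subunits of protein kinase A. Of its 22 measured genes, 1 was higher, 1 was lower and 20 passed neither direction. Of all clusters, 0.909% were higher and 1.78% lower past both limits, and 4.55% passed the FDR limit alone. In limma 11 of the 22 had an unadjusted p under 0.05, where 19.6% of all clusters did. FOXL2, a forkhead factor of granulosa identity, rose by 0.64 on the log2 scale (limma adjusted p = 0.0142), with 8.11, 8.16 and 7.97 with PD98059, against 7.47, 7.31 and 7.54 with DMSO. EGR1, an immediate early gene, fell by 1.04 (adjusted p = 0.00323), with 7.00, 6.86 and 7.10 with PD98059, against 8.00, 7.95 and 8.12 with DMSO. FOS, another immediate early gene, had -0.59 and an adjusted p of 0.0688. The call for EGR1 held whichever array was left out, and that for FOXL2 was lost without PD98059 replicate 1, PD98059 replicate 2 or DMSO replicate 1. In all, 4 of the 22 passed the FDR limit; the other two were NR5A2, a nuclear receptor that activates steroidogenic genes, at 0.43 (adjusted p = 0.0177), and PRKAR2B, a regulatory subunit of protein kinase A, at 0.41 (adjusted p = 0.0263), both with a fold under 1.4. NR5A2 had 9.72, 9.60 and 9.68 with PD98059, against 9.22, 9.26 and 9.22 with DMSO. Its relative NR5A1 had 0.26 (adjusted p = 0.202) and its groups overlapped. These 3 were picked after their values were seen. SOX9 and CEBPB were not analysed here.

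Some markers of cell types also differed between the groups. Of 14 measured granulosa cell genes, 9 rose and none fell, where 0.909% of all clusters were higher and 1.78% lower past both limits. Among the 9 were CYP19A1, HSD17B1 and FOXL2, which were already counted in the lists above. The 14 genes had a median log2 fold change of 0.64, beside 0.01 over all clusters. Their summed level was 14.08 to 14.10 with PD98059 and 13.35 to 13.42 with DMSO on the log2 scale. Those of highest signal, INHBA, SERPINE2 and FST, rose by 0.58, 0.64 and 0.76. Theca markers held 1 rise of 11, the Leydig and theca hormone INSL3 (limma adjusted p = 0.00623; 8.82, 8.88 and 8.88 with PD98059, against 8.29, 8.19 and 8.28 with DMSO), and a second, PTCH1, the Hedgehog receptor, passed the FDR limit with a fold under 1.4 (log2 fold change 0.39, adjusted p = 0.0258; 6.53, 6.52 and 6.57 with PD98059, against 6.10, 6.13 and 6.22 with DMSO). NR2F2 and RORA, next in signal to INSL3, had -0.02 and 0.00, and LHCGR and CYP17A1 lay near or below background. The theca list had a median of 0.14. Its summed level, in which INSL3 weighed most, was 9.73 to 9.78 with PD98059 and 9.37 to 9.43 with DMSO. Of 12 fibroblast and smooth muscle genes, 3 fell (PDGFRA by 0.59, PDGFRB by 0.81 and CNN1 by 0.66), and COL1A1 passed the FDR limit with a fold under 1.4, at -0.46 (adjusted p = 0.0464). Those of highest signal, LUM, POSTN and COL1A2, had -0.17, -0.03 and -0.21. The list did not move one way: the smooth muscle myosin MYH11 had 0.62 (adjusted p = 0.0694; 4.28, 4.64 and 4.51 with PD98059, against 4.01, 3.57 and 3.98 with DMSO) and COL3A1 had 0.20 (adjusted p = 0.273), both without overlap. The median was -0.15, and the summed level was 13.07 to 13.15 with PD98059 and 13.21 to 13.23 with DMSO. Of 8 endothelial genes only VWF fell, by 0.57, and PECAM1 lay below background. The endothelial summed level was 6.92 to 6.99 with PD98059 and 7.02 to 7.12 with DMSO. None of 14 immune genes passed the FDR limit in limma, where 4.55% of all clusters did. Only 1, PTPRC, had an unadjusted p under 0.05, where 19.6% of all clusters did, and it lay below background. The immune summed level was 8.42 to 8.70 with PD98059 and 8.40 to 8.48 with DMSO. The immune markers of highest signal, CD68, CD14 and C1QB, had log2 fold changes of -0.03, 0.19 and -0.03, and beside VWF the endothelial ones of highest signal, CLDN5 and ESAM, had -0.05 and 0.16. Of these marker calls, that of CNN1 was lost whichever array was left out, that of VWF held only without DMSO replicate 2, and that of INHBB was lost without DMSO replicate 1. PTCH1, COL1A1, MYH11 and COL3A1 were picked after their values were seen. In these bulk cultures fewer cells of a type and less RNA per cell cannot be told apart, and the part of these shifts in the changes of FDXR, FDX1, TSPO and HSD11B1 was not tested.

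The genes whose values followed FDXR most closely over the 6 arrays, among 551 called and named clusters above background, were WDR19, INHA, PRSS23, LPL and TK1 (Pearson r between 0.9969 and 0.9996). For HSD11B1 they were TSKU, FXYD5, SNAP25, SPRY2 and SESN2 (r between 0.9939 and 0.9976). All of these genes were picked from those that differed between the 2 groups, and the values are a description only.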

How the data were processed

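The deposited values are log2 signals that the authors made by robust multichip averaging (RMA) in Affymetrix Expression Console from arrays hybridised after 3′ amplification labelling; 3 PD98059 and 3 DMSO arrays were used. All 146490 values were equal in both deposited tables. Of 24415 clusters, 19683 were named, 16051 of them through RefSeq accessions of the ARS-UCD2.0 annotation. No cluster was filtered out before the test. Groups were compared with lmFit and eBayes of limma 3.58.1 in R 4.3.3, treatment being the only factor, with Benjamini-Hochberg adjustment over all clusters; FDR under 0.05 and fold above 1.4 are the limits of the study's methods. The fit was also run on simulated data with known changes and independent noise. Such data cannot show effects shared between cultures. All 10 genes are described; from other lists the genes past both limits are named, or the 3 with the largest change, and from the cell type lists those past both limits and the 3 of highest signal. The genes and lists were chosen with earlier results of these data known. The number of arrays limits the precision. No sequences were printed because no sequence tables were at hand. Alternatives covered the replicate block, centring, filtering, the variance trend, the unmoderated test, other limits and each array left out.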

Additional observations from a re-analysis of the deposited data

How the results depend on the processing

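Across 168 combinations of a gene of the 10 and an alternative, 19 changed whether a gene was called and none turned the direction of a called gene. Taken by the adjusted p of 0.05 alone, 28 moved a gene across it: 8 each for FDX1, TSPO and HSD11B1, 3 for FDXR, and 1 for POR, which passed with a variance trend (adjusted p = 0.0357). CYP17A1 and SULT1E1 have no value where clusters with a mean not above background were left out. Deviations of same-numbered arrays were weakly correlated (0.05, 0.04 and 0.04), and the correlations of the other pairs were -0.036 to -0.0025. Whether the replicate numbers of the labels pair the samples was not settled. With the replicate block 237 clusters and 0 of the 10 genes passed, with FDXR at 0.50 (adjusted p = 0.0688) and HSD11B1 at -0.57 (adjusted p = 0.0814). With each array centred on its median FDXR was 0.46, inside the fold limit, and TSPO was -0.50, past both. An unmoderated test passed 350 clusters and 1 of the 10 genes, FDXR, with HSD11B1 at -0.57 (adjusted p = 0.0548). The study's methods name an analysis of variance and do not say whether it was moderated, so the unmoderated test is not taken as theirs. With the fold limit inside the test (limma's treat) 38 clusters and 0 of the 10 passed, FDXR at 0.50 and HSD11B1 at -0.57 having an adjusted p of 1. At FDR under 0.01, 272 clusters and 0 of the 10 passed. Without a fold limit, 1110 clusters and 4 of the 10 passed, FDX1 at 0.41 and TSPO at -0.47 among them. With 1 array left out, 271 to 491 clusters and 0 to 1 of the 10 passed, the FDXR log2 fold change was 0.48 to 0.53 and that of HSD11B1 was -0.64 to -0.51. Of 19 other listed genes past both limits, 11 passed in every such fit. The unmoderated test lost 7 of the 19 (CYP21A2, CYP1B1, HSD17B1, HSD17B10, FOXL2, CNN1 and VWF), the replicate block lost 10 (these 7 and INHBA, INSL3 and PDGFRA), treat lost 16 and FDR under 0.01 lost 8. FOS gained a call under 4 alternatives (clusters above background alone, variance trend, averaging the clusters of each gene, and without PD98059 replicate 1), and COL1A1 with centring. Fewer arrays leave fewer degrees of freedom; the other causes were not tested.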
